A study of Mus musculus with 12 samples.

Results

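The response of mock-transduced mouse tubular epithelial cells to transforming growth factor β (TGFβ) was measured by comparing 3 libraries of treated cells with 3 libraries of untreated cells. These 6 libraries were chosen by their labels, which give a mock construct with or without TGFβ, and they are 6 of the 12 libraries of the series. The other 6 come from cells labelled as carrying an Nnmt expression construct (Nnmt-OE), also with and without TGFβ, and are used here as a second set of libraries treated the same way. The cells are conditionally immortalised tubular epithelial cells (im_TEC), which carry an SV40 large T antigen. All groups share the growth at 33 °C with 10 ng/mL interferon γ, the 7 days at 37 °C without it, a transduced construct and puromycin selection. The treated groups received TGFβ at 10 ng/mL for 48 h.

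TGFβ is held in the matrix as a latent complex, and once released it binds a pair of receptor kinases that phosphorylate the transcription factors SMAD2 and SMAD3. These act with SMAD4, and in many cells with actin-linked factors such as SRF and YAP, on genes of the cytoskeleton and the matrix, and also on genes of feedback inhibitors. In the kidney tubule TGFβ is known for the loss of epithelial features and for the fibrotic change that follows injury.

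Messenger RNA was counted from 3' tags (QuantSeq), a method that reads each transcript once, close to its 3' end. A level in CPM (the reads of a gene scaled to the size of its library) is therefore not divided by length. Reads assigned to genes ranged from 4733846 to 6072745 in the untreated libraries and from 5693417 to 7247413 with TGFβ. No label says that the 3 libraries of a group are separate cultures. The p-values then reflect only how these libraries vary, which may be technical, although the variation within each group was above counting noise. On the first 3 principal components of the 6 libraries, which held 28.2, 25.8 and 19% of the variance, untreated replicate 1 lay farthest from the rest on the first, TGFβ replicate 3 on the second and untreated replicate 2 on the third. The library codes of treated and untreated cells do not interleave, so a difference in handling between them cannot be told apart from TGFβ. Of 18 markers of tubular epithelium, Pax8, Pax2, Cdh16, Krt8, Emx2, Lrp2 and Aqp1 were among those measured, while Cdh1, Epcam, Lhx1, Umod, Aqp2 and Aqp3 had no read in any of the 6 libraries. Defining markers of endothelium (Pecam1, Cdh5), macrophages (Adgre1, Itgam) and podocytes (Nphs1) also had no read.

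TGFβ changed 184 of the 12897 genes tested (1.43%) by edgeR's quasi-likelihood test at an adjusted p of 0.05. Of these 86 were higher (0.667%) and 98 lower (0.76%). Most changes were small. Only 33 genes (0.256%) were past 2-fold, 5 of them past 4-fold, and 84 were under 1.5-fold. The median size of a called rise was 0.588 and of a called fall 0.649 on the log2 scale, against a 95% interval reaching 0.349 to either side for a typical gene at 10 CPM or more. The 3 treated and 3 untreated values did not overlap for 182 of the 184 genes, and for 16.4% of all genes tested (7.78% with treated values above and 8.58% with treated values below). Leaving out each library in turn gave 98 to 188 called genes, with the lowest count without TGFβ replicate 2, 115 without TGFβ replicate 1 and 135 without untreated replicate 2. With 3 libraries left out together (untreated replicate 1, TGFβ replicate 3 and, among Nnmt-OE cells, the treated replicate 3), an alternative chosen after seeing the data that kept untreated replicate 2, 168 genes were called, 82 higher and 86 lower. In all 6 fits without 1 library 63 of the 184 genes passed, 23 higher and 40 lower. Of these 63, all but Sox9, Nrp1 and Slc20a1, 60 genes in all, also passed with the 3 libraries left out together.

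**Figure D1:**
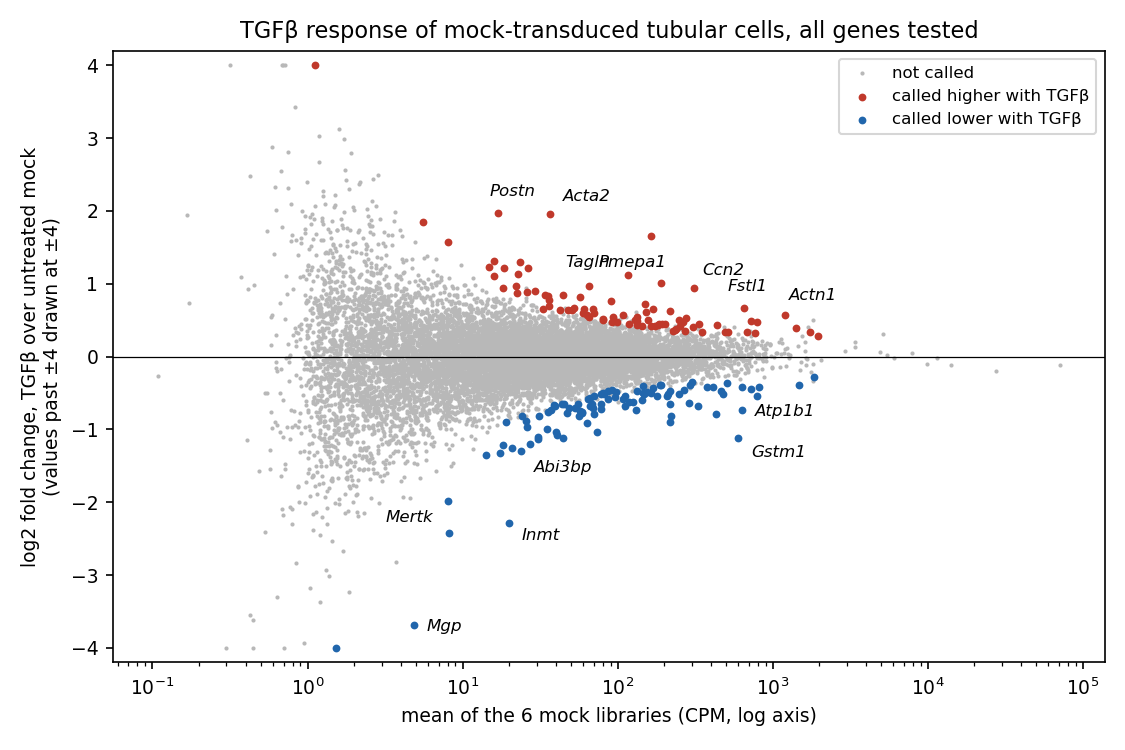
Each point is 1 of 12897 genes, with its mean level in the 6 mock libraries in CPM on a log axis and its log2 fold change with TGFβ. The 86 genes called higher (red) and 98 called lower (blue) lie mostly within 2-fold of no change, with Mgp, Inmt, Mertk, Postn and Acta2 farthest among those labelled.

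Few genes of the TGFβ pathway itself were called, namely a feedback inhibitor and a pair of latency proteins. Among ligands, receptors and latency proteins, 1 of 13 tested rose and 1 fell, with a median of -0.02 (log2), against -0.002 over all genes tested. The counts given for this and each later list stand beside 1.43% called and 49.7% positive over all genes tested. Ltbp3, a binding protein of latent TGFβ, stood at 170.0, 153 and 135 CPM in untreated replicates 1 to 3 and at 92.9, 101 and 103 CPM with TGFβ. All treated values lay below all untreated ones, a fall of 1.55-fold (log2 -0.63 ± 0.12 SE, edgeR adjusted p = 0.00109). Its relative Ltbp1 rose 1.86-fold (log2 0.89 ± 0.23 SE, edgeR adjusted p = 0.0393), a call lost without untreated replicate 1 or 3 or TGFβ replicate 1 or 2 (highest adjusted p = 0.432). The ligand gene Tgfb2 stood at 0.33 ± 0.09 (log2 ± SE, edgeR adjusted p = 0.062) and the receptor gene Tgfbr2 at -0.17 ± 0.10 (edgeR adjusted p = 0.562), neither past the threshold.

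Among 23 SMAD and feedback genes only Pmepa1 was called, and the list median was 0.05. Pmepa1 (ENSMUSG00000038400) encodes a membrane protein that holds receptor-regulated SMADs away from the receptor. It stood at 134, 131 and 118 CPM without TGFβ and at 237, 254 and 277 CPM with it. All treated libraries lay far above all untreated ones, and the fold was 2.01 (log2 1.01 ± 0.10 SE, edgeR adjusted p = 5.22e-09). Smad7, the inhibitory SMAD, stood at 0.51 ± 0.21 with overlapping groups (edgeR adjusted p = 0.271), Skil at 0.25 ± 0.14 (0.543) and the signalling gene Smad3 at -0.36 ± 0.12 (0.138).

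An antagonist of BMP ligands rose and a pair of Id genes fell. Of 23 BMP and Id genes 1 rose and 2 fell (13%, against 1.43% of all genes tested), with a median of 0.03. Fstl1, a secreted follistatin-like protein that can bind BMPs, stood at 480.1, 556 and 486 CPM untreated and at 763, 802 and 856 CPM with TGFβ. The groups were well apart, with a rise of 1.59-fold (log2 0.67 ± 0.08 SE, edgeR adjusted p = 1.50e-06). Id2 and Id4 encode inhibitors of helix-loop-helix transcription factors and are classic BMP targets. Id2 stood at 552, 548 and 524 CPM untreated and at 409, 324 and 441 CPM with TGFβ, a fall of 1.38-fold (log2 -0.47 ± 0.09 SE, edgeR adjusted p = 0.00218) that was lost without TGFβ replicate 2 (adjusted p = 0.0886), the treated library with the lowest level. Id4 fell 2.16-fold (log2 -1.11 ± 0.24 SE, edgeR adjusted p = 0.0144), a call lost without untreated replicate 1 or TGFβ replicate 1 or 2 (highest adjusted p = 0.108). The remaining Id genes did not pass, with Id1 at -0.25 ± 0.11 (edgeR adjusted p = 0.379) and Id3 at 0.12 ± 0.21 (0.896).

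Of 7 activin genes, Inhba alone was called. It encodes the subunit of activin A, a ligand that also signals through SMAD2 and SMAD3. Inhba stood at 65.4, 63.4 and 72.2 CPM in untreated cells and at 116, 116 and 111 CPM with TGFβ, and all treated values lay above, by 1.7-fold (log2 0.77 ± 0.12 SE, edgeR adjusted p = 8.54e-05). Fst, which encodes the activin-binding follistatin and was far more abundant, stood at 1140.4, 1511 and 1879 CPM untreated and 2310.5, 2211 and 1926 CPM treated. Its groups did not overlap, but at 0.51 ± 0.14 it missed the threshold (edgeR adjusted p = 0.115).

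All 4 members of the CCN family that could be tested rose, with a median of 0.80. These are matricellular proteins that bind integrins and growth factors. Ccn5 rose 2.45-fold (log2 1.30 ± 0.24 SE, edgeR adjusted p = 0.00109), Ccn4 1.57-fold (log2 0.65 ± 0.10 SE, edgeR adjusted p = 0.000112) and Ccn1 1.4-fold (log2 0.48 ± 0.08 SE, edgeR adjusted p = 0.000256). Ccn2, long known as connective tissue growth factor, stood at 176, 251 and 209 CPM untreated and at 483, 452 and 288 CPM with TGFβ. TGFβ replicate 3 lay near the highest untreated library while the other two treated libraries lay far above. The rise of 1.93-fold (log2 0.95 ± 0.19 SE, edgeR adjusted p = 0.0338) was lost without untreated replicate 1 or 3 or TGFβ replicate 1 or 2 (highest adjusted p = 0.201). In a fit of the 6 mock libraries alone the rise missed the threshold (edgeR adjusted p = 0.0569). With the 3 libraries left out together, TGFβ replicate 3 among them, the edgeR adjusted p was 4.84e-11. Of 36 YAP-TEAD targets and Hippo kinases 3 rose and 0 fell, with a median of 0.05. They were Ccn1, Ccn2 and the stress gene Gadd45b (1.97-fold, log2 0.98 ± 0.17 SE, edgeR adjusted p = 0.000898). The abundant target Ankrd1 stood at 0.38 ± 0.15 with overlapping groups (edgeR adjusted p = 0.337).

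Among 41 growth factors and receptor kinases 2 rose and 2 fell, with a median of -0.04. Pdgfb, a ligand for platelet-derived growth factor receptors, stood at 171, 185 and 157 CPM untreated and at 262, 254 and 276 CPM with TGFβ, and rose 1.55-fold (log2 0.63 ± 0.10 SE, edgeR adjusted p = 4.85e-05). The neurotrophin gene Bdnf, at 42.3, 47.9 and 34.3 CPM untreated and 66.8, 63.7 and 88.4 CPM with TGFβ, rose 1.76-fold (log2 0.82 ± 0.16 SE, edgeR adjusted p = 0.00314). Nrp1, a co-receptor for vascular growth factors and semaphorins, fell 1.46-fold (log2 -0.55 ± 0.11 SE, edgeR adjusted p = 0.0021), lost with the 3 libraries left out together (adjusted p = 0.0646). Vegfb fell 1.38-fold (log2 -0.47 ± 0.13 SE, edgeR adjusted p = 0.0476), a call lost without untreated replicate 1, 2 or 3 or TGFβ replicate 1 or 2 (highest adjusted p = 0.356).

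Contractile and SRF target genes gave the largest group of rises. Of 50 tested, 8 rose, 1 fell and 41 did not pass. The list median was 0.20 (the same with Ldb3, described below, at its lower bound), 36 members were positive (49.7% over all genes tested), and 21 had treated values all above the untreated ones (7.78% of all genes). Acta2 (ENSMUSG00000035783), which encodes smooth muscle actin and is the usual marker of a myofibroblast, stood at 12.1, 16.3 and 16.7 CPM in untreated cells and at 57.3, 53.7 and 65.1 CPM with TGFβ. The lowest treated library was more than 3 times the highest untreated one, and the fold was 3.9 (log2 1.96 ± 0.18 SE, edgeR adjusted p = 1.06e-09). Tagln, an actin-binding protein of smooth muscle, stood at 79.6, 64.1 and 75.2 CPM untreated and at 145, 169 and 162 CPM with TGFβ, a rise of 2.17-fold (log2 1.12 ± 0.12 SE, edgeR adjusted p = 4.55e-08). Actn1, the actin crosslinker α-actinin, was much more abundant, at 878, 1055 and 964 CPM untreated and 1424, 1462 and 1419 CPM with TGFβ. It rose 1.49-fold (log2 0.57 ± 0.08 SE, edgeR adjusted p = 6.37e-06), with treated values within a narrow band.

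The sarcomere genes Tnnt2, Acta1 and Ldb3 were also among the contractile genes that rose. Of these, only Tnnt2 kept its call in each of the 6 fits without 1 library. Tnnt2, cardiac troponin T, stood at 12.1, 17.8 and 17.5 CPM untreated and at 38.9, 35 and 36.2 CPM with TGFβ, a rise of 2.33-fold (log2 1.22 ± 0.21 SE, edgeR adjusted p = 0.000399). Tropomyosin Tpm1 rose 1.26-fold (log2 0.33 ± 0.07 SE, edgeR adjusted p = 0.00669), lost without untreated replicate 3 (adjusted p = 0.052), and Tagln2 rose 1.26-fold (log2 0.33 ± 0.09 SE, edgeR adjusted p = 0.0406), lost without untreated replicate 2 or 3 or TGFβ replicate 2 or 3 (highest adjusted p = 0.196). Acta1, skeletal muscle actin, rose 3.61-fold at low counts (log2 1.85 ± 0.48 SE, edgeR adjusted p = 0.0361), a call lost in each of the 6 fits without 1 library (highest adjusted p = 0.128). Actin genes are near-identical in their coding parts, and the sources used here do not say how reads that match several of them were counted. Ldb3, a protein of the sarcomere's Z-disc, had 0 reads in the 3 untreated libraries and 11, 17 and 16 reads with TGFβ. Against a floor of 3 counts over the untreated group, it was at least 12.0-fold higher (edgeR adjusted p = 0.0448), a call also lost in each of those fits (highest adjusted p = 0.161).

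Mylk went the other way. It encodes myosin light chain kinase, and near its 3' end also the short protein telokin, which 3' tags do not separate. Mylk stood at 442, 398 and 379 CPM untreated and at 283, 239 and 241 CPM with TGFβ, with no overlap, and fell 1.6-fold (log2 -0.68 ± 0.09 SE, edgeR adjusted p = 9.00e-06). The abundant cytoskeletal genes Actb (0.04 ± 0.20, edgeR adjusted p = 0.969) and Cald1 (0.13 ± 0.08, 0.525) had overlapping groups. Markers of smooth muscle and pericytes other than these genes summed to 27.13 to 38.91 CPM untreated and 36 to 48.26 CPM with TGFβ. Nearly all of that was Cnn1 (0.23 ± 0.18, edgeR adjusted p = 0.692), and Myocd, Rgs5 and Cspg4 of its 8 markers had no read. Their part in the contractile rise was not tested, and in bulk RNA more cells of a type and more RNA per cell cannot be told apart.

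Promoter sequences were read so that contractile genes that rose could be set beside those of the same list that did not. Of 3 motifs compared within the list, CATTCC is shown because its share differed most between these genes, a choice made after the shares were seen and not tested. The letters CATTCC, the core recognised by TEAD factors, were searched on both strands in the 250 bases before each gene's start, from RefSeq sequences on GRCm38.p6. A match was present for 5 of the 7 contractile genes called higher that had a promoter sequence. It was present for 8 of the 37 other contractile genes (21.6%), among them Mylk, which was called lower. Of all 8961 promoters of tested genes 930 held a match (10.4%). Over all genes called higher the share was 12.7%, and over those called lower 12.5%. Ccn1, called higher but outside the contractile list, held a match, as did Id4 and Gstm2, which were called lower. Of the 5 contractile genes, only Acta2 and Tnnt2 kept their calls in each of the 6 fits without 1 library. Acta1, Tagln2 and Tpm1 did not. The windows of the 5 contractile genes and of Ccn1 are shown 5′ to 3′ along the gene, with the match in capitals (GGAATG is the same motif on the opposite strand). They lie at chr19:34255374-34255623, minus strand (Acta2), chr8:123894776-123895025, minus strand (Acta1), chr1:135836084-135836333, plus strand (Tnnt2), chr9:67049214-67049463, minus strand (Tpm1), chr1:172499996-172500245, plus strand (Tagln2) and chr3:145649986-145650235, minus strand (Ccn1).
Acta2: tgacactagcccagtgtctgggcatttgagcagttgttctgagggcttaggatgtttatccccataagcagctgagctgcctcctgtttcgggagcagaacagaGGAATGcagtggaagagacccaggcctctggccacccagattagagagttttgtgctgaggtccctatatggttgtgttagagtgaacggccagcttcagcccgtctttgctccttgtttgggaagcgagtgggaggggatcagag
Acta1: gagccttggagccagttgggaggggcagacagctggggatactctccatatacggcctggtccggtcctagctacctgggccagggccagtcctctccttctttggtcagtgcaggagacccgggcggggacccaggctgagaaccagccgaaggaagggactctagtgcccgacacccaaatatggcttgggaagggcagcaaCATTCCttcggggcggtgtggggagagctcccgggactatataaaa
Tnnt2: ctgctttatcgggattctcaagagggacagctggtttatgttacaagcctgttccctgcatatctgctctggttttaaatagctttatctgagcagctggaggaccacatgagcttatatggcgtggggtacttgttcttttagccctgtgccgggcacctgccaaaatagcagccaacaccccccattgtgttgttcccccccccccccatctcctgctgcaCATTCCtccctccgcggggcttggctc
Tpm1: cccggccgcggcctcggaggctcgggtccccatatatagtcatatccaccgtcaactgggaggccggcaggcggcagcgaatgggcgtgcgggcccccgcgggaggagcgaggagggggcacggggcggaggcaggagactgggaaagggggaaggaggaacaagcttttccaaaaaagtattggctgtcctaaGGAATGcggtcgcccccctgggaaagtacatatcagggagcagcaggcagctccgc
Tagln2: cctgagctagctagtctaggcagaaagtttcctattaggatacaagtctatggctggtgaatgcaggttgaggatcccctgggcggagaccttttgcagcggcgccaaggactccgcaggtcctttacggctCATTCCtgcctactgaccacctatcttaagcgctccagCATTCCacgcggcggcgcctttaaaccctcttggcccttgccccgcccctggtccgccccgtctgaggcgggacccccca
Ccn1: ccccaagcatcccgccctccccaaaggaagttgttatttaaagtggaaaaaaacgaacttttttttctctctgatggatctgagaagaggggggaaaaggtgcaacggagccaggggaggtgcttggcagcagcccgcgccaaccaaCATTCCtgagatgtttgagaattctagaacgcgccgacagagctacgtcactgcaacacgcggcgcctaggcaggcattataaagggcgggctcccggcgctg

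The first base of the match lay 146 bases before the start in Acta2, 46 in Acta1, 27 in Tnnt2, 56 in Tpm1, 103 in Ccn1, and 118 and 80 in Tagln2, which holds 2 copies. The CArG box recognised by SRF was searched only in its exact form, CCWWWWWWGG with W for A or T. That form was found in 2 of the 7 (Acta1 and Ldb3), in 7 of the 37 others and in 1.17% of all promoters. Forms that differ by a base were not counted, such as ccctatatgg in the Acta2 window, so a gene without a match may still hold such a form. The SMAD element CAGACA was found in 17.5% of promoters of genes called higher, 11.2% of those called lower and 12.8% of all. These windows were matched for 63 of the 86 genes called higher and 80 of the 98 called lower. A match describes letters in a window and is not a site.

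**Figure D2:**
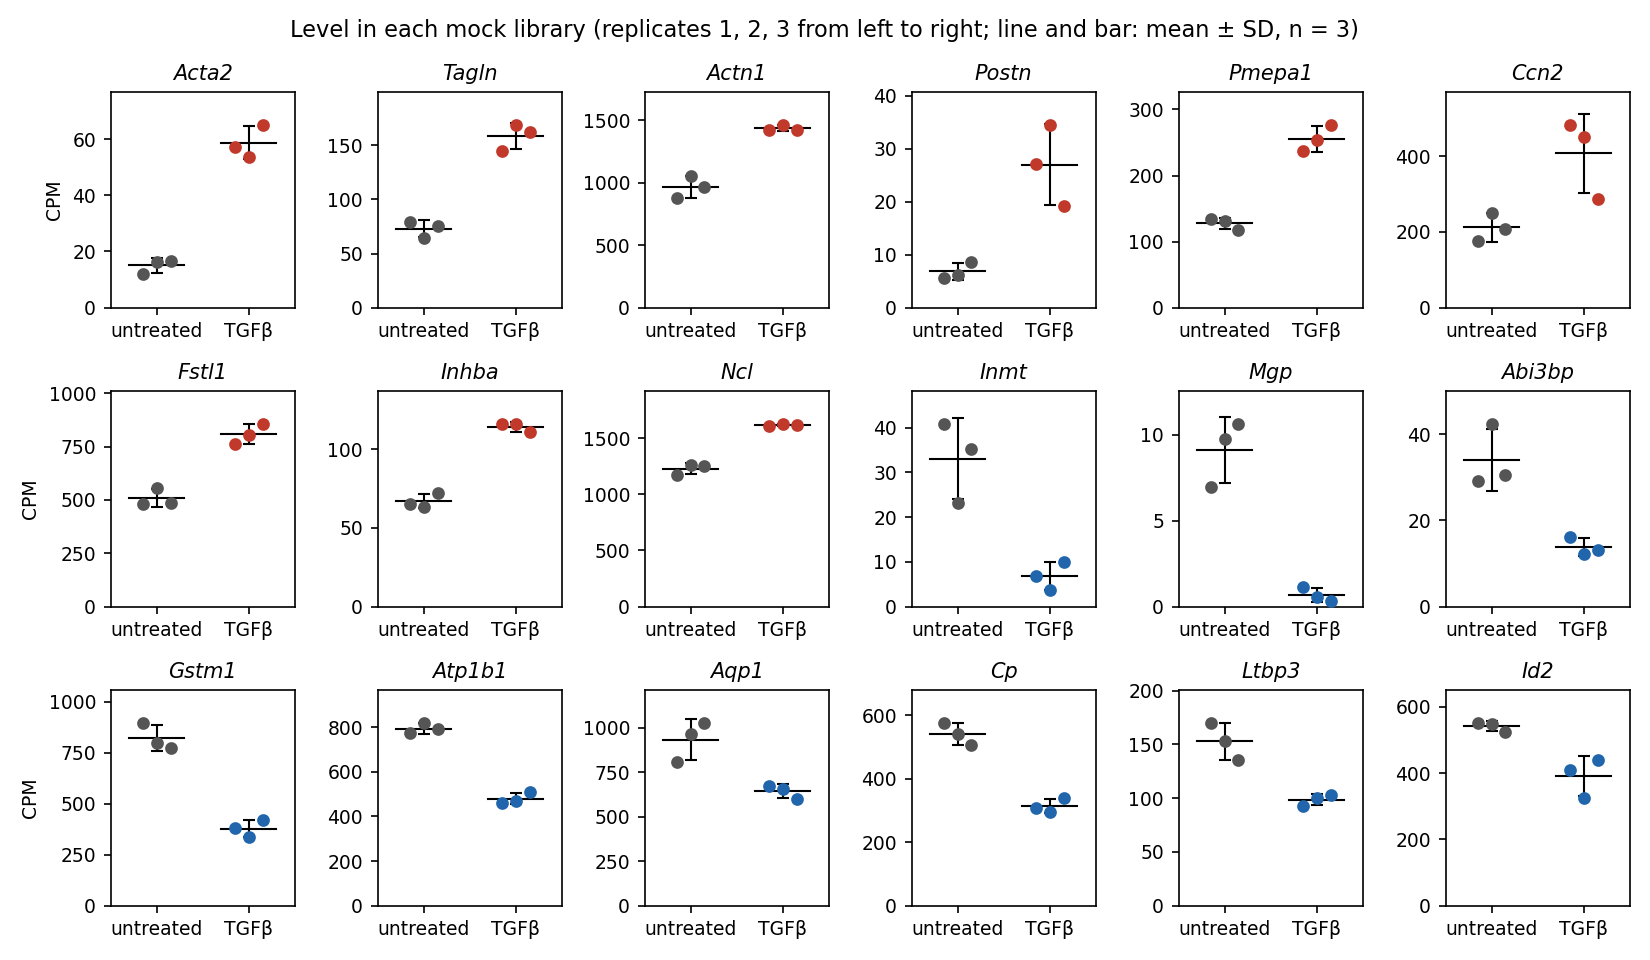
Each panel gives the level of 1 gene in CPM in the 3 untreated and 3 TGFβ-treated mock libraries, with a line at the mean and a bar of ± SD (n = 3). The 18 genes were picked from the 184 called genes, of which 182 have values that do not overlap, against 16.4% of all genes tested. The lack of overlap in all 18 panels therefore follows from that choice. The closest approach for a gene called higher is that of TGFβ replicate 3 to the untreated libraries for Ccn2.

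Matrix genes moved in both directions, and fibrillar collagens did not pass the test. Of 28 matrix glycoproteins and proteoglycans 1 rose and 3 fell, with a median of -0.09. Postn (ENSMUSG00000027750), the matricellular protein periostin, stood at 5.68, 6.15 and 8.66 CPM untreated and at 27.2, 34.5 and 19.3 CPM with TGFβ. The treated libraries varied, but the lowest was above 2 times the highest untreated one, and the fold was 3.93 (log2 1.97 ± 0.29 SE, edgeR adjusted p = 2.41e-05). Abi3bp, a secreted matrix protein, fell 2.45-fold (log2 -1.29 ± 0.23 SE, edgeR adjusted p = 0.00078), from 29.1, 42.4 and 30.6 CPM to 16.3, 12.1 and 13.1 CPM. Sned1, a matrix glycoprotein, fell 2.3-fold (log2 -1.20 ± 0.23 SE, edgeR adjusted p = 0.00201). Ecm1 fell 1.32-fold (log2 -0.40 ± 0.11 SE, edgeR adjusted p = 0.0476), lost without untreated replicate 2 or 3 or TGFβ replicate 1 or 2 (highest adjusted p = 0.22). The abundant Fn1 (fibronectin) stood at 0.15 ± 0.09 (edgeR adjusted p = 0.516) and Sparc at -0.10 ± 0.07 (0.633), both with overlapping groups.

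Mgp, which encodes matrix Gla protein, an inhibitor of calcification, fell to a level near the limit of detection. It was in none of the lists and was chosen after its values were seen. Mgp stood at 6.93, 9.76 and 10.6 CPM untreated and at 1.12, 0.552 and 0.354 CPM with TGFβ, or 150 against 14 reads over each group. That is a level 13.0-fold lower per read sequenced (log2 -3.69 ± 0.75 SE, edgeR adjusted p = 0.0034), in a gene of few reads.

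Among 32 collagens and collagen-processing genes 0 rose and 1 fell, with a median of 0.03. The member that fell was Pcolce, an enhancer of procollagen processing (1.27-fold, log2 -0.34 ± 0.09 SE, edgeR adjusted p = 0.0336), lost without untreated replicate 2 or 3 or TGFβ replicate 1, 2 or 3 (highest adjusted p = 0.125). Type I collagen was at the edge of detection, with Col1a1 at 1.42, 5.51 and 4.74 CPM untreated and 7.71, 9.79 and 6.89 CPM with TGFβ. Its values did not overlap, and the test was not passed (1.07 ± 0.48, edgeR adjusted p = 0.358). Col1a2 stood at 0.178, 0.212 and 1.8 CPM and 6.02, 2.48 and 1.06 CPM, with overlap (2.06 ± 1.02, 0.42). The 10 fibroblast markers, to which these genes belong, summed to 3.37 to 6.54 CPM untreated and 7.96 to 13.73 CPM with TGFβ, while Col3a1, Lum, Pdpn, Thy1 and Dpt had no read. The part of such cells in the matrix values was not tested.

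Of 24 matrix proteases and inhibitors 2 rose and 0 fell, with a median of 0.11. The metalloproteinase inhibitor gene Timp3 rose 1.27-fold (log2 0.34 ± 0.08 SE, edgeR adjusted p = 0.0227), lost without untreated replicate 2 or 3 or TGFβ replicate 1 (highest adjusted p = 0.149). The protease gene Adamts4 rose 2.16-fold (log2 1.11 ± 0.27 SE, edgeR adjusted p = 0.022), lost without untreated replicate 1 or 2 or TGFβ replicate 1 or 2 (highest 0.2). Of 25 integrin and focal adhesion genes only the collagen receptor subunit Itga1 was called. Itga1 stood at 192, 171 and 154 CPM untreated and at 121, 114 and 107 CPM with TGFβ, a fall of 1.51-fold (log2 -0.59 ± 0.11 SE, edgeR adjusted p = 0.00078), while the abundant Itgb1 stood at 0.15 ± 0.08 (edgeR adjusted p = 0.475).

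Genes of tubular transport mostly had values below 0. Of 20 tubule transport and brush border genes 0 rose and 2 fell (10%, against 1.43% of all genes tested). The median was -0.32 and 3 members were positive (49.7% over all genes tested). Treated values lay all below the untreated ones for 7 members (8.58% of all genes). The sum of the 20 genes was 4787, 5102 and 5365 CPM in the untreated libraries and 4104, 3976 and 3789.8 CPM with TGFβ, with no overlap. Atp1b1 (ENSMUSG00000026576), the β subunit of the sodium-potassium pump, stood at 772, 819 and 789.8 CPM untreated and at 462, 467 and 508 CPM with TGFβ. It fell 1.66-fold (log2 -0.73 ± 0.08 SE, edgeR adjusted p = 4.46e-08). Aqp1, the water channel of the proximal tubule and thin descending limb, stood at 808, 968 and 1028 CPM untreated and at 674, 657 and 599 CPM with TGFβ, a fall of 1.45-fold (log2 -0.54 ± 0.08 SE, edgeR adjusted p = 5.72e-05). Lrp2, the endocytic receptor megalin, stood at -0.27 ± 0.11 (edgeR adjusted p = 0.258).

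Of 15 renal identity factors 0 rose and 2 fell (13.3%, against 1.43% of all genes tested). The median was -0.12 and 3 members were positive (49.7% over all genes tested). Tfcp2l1, a factor of the distal nephron and collecting duct, fell 1.41-fold (log2 -0.49 ± 0.11 SE, edgeR adjusted p = 0.00717), and the bZIP factor gene Maf fell 1.45-fold (log2 -0.54 ± 0.11 SE, edgeR adjusted p = 0.00492), lost without untreated replicate 2 (adjusted p = 0.0502). The nephron factors Pax2 (-0.06 ± 0.10, edgeR adjusted p = 0.87) and Pax8 (-0.11 ± 0.10, 0.715) had overlapping groups. Cdh16, the kidney-specific cadherin, stood at 158, 124 and 126 CPM untreated and at 88.3, 68.7 and 99.9 CPM with TGFβ, a fall of 1.6-fold (log2 -0.68 ± 0.13 SE, edgeR adjusted p = 0.00201) that was lost without TGFβ replicate 2 (adjusted p = 0.0605). Sox9, a factor of tubular repair, fell 1.71-fold (log2 -0.78 ± 0.16 SE, edgeR adjusted p = 0.0038), lost with the 3 libraries left out together (adjusted p = 0.0827).

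N-cadherin, vimentin and the keratin genes did not pass the test. Of 22 genes for EMT factors and cadherins 0 rose and 2 fell, namely Cdh16 and Sox9, with a median of -0.10. Cdh2, N-cadherin, stood at 0.20 ± 0.11 (edgeR adjusted p = 0.545) and Cdh6 at 0.18 ± 0.08 (0.349). Of 25 keratins and junction genes 0 were called, 12 were positive and the median was -0.003. Krt8 stood at 0.45 ± 0.13 (edgeR adjusted p = 0.0707) and the claudin gene Cldn1 at -0.44 ± 0.13 (0.0774), both without overlap, and Vim, vimentin, stood at 0.01 ± 0.08 (0.987). Havcr1, the kidney injury molecule gene, stood at 14.6, 20.6 and 21.9 CPM untreated and 31.9, 36.3 and 28.6 CPM with TGFβ, short of the threshold (0.77 ± 0.22, edgeR adjusted p = 0.0624). Apart from Ccn1 and Sox9, described above, none of 33 injury and repair genes was called.

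**Figure D3:**
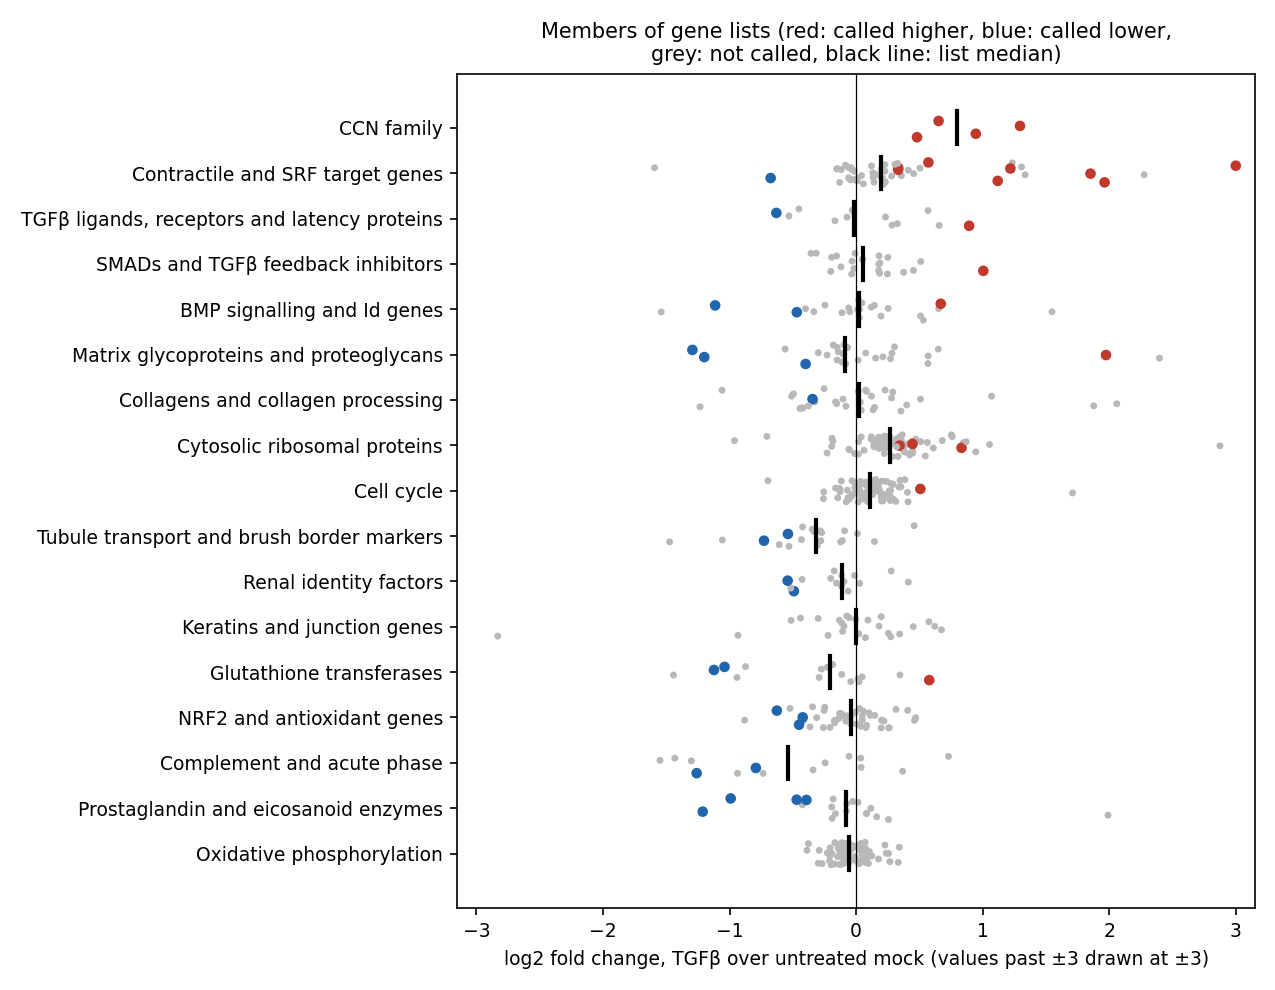
Each point is 1 tested member of a gene list at its log2 fold change with TGFβ, red or blue where called, and the black line is the list's median. All 4 CCN genes lie to the right, tubule transport genes mostly to the left (median -0.32), and keratin, junction and oxidative phosphorylation genes are centred near 0.

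Complement and acute phase genes had the lowest median of the lists with at least 10 members tested, -0.54, with 0 of 14 higher, 2 lower and 4 positive. Cp, the copper-carrying ferroxidase ceruloplasmin, stood at 576, 542 and 508 CPM untreated and at 307, 295 and 338 CPM with TGFβ, and fell 1.73-fold (log2 -0.79 ± 0.09 SE, edgeR adjusted p = 5.07e-08). The complement gene C3 stood at 32.3, 28 and 27.5 CPM untreated and at 12.2, 14.1 and 10.3 CPM with TGFβ, a fall of 2.39-fold (log2 -1.26 ± 0.26 SE, edgeR adjusted p = 0.0034). Several other members had few reads, among them Lcn2, and Clu, which had more, stood at 0.04 ± 0.15 (edgeR adjusted p = 0.963).

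Of 19 genes for prostaglandin and eicosanoid enzymes 0 rose and 4 fell (21.1%, against 1.43% of all genes tested), with a median of -0.08. They span synthesis, uptake and epoxide breakdown. Ptgds, a prostaglandin D synthase, stood at 54.2, 44.1 and 41.5 CPM untreated and at 24.9, 22.2 and 23.2 CPM with TGFβ, a fall of 1.99-fold (log2 -0.99 ± 0.19 SE, edgeR adjusted p = 0.00174). Ptgs1, cyclooxygenase 1, fell 2.32-fold (log2 -1.21 ± 0.28 SE, edgeR adjusted p = 0.0139), lost without untreated replicate 2 or TGFβ replicate 1 or 3 (highest adjusted p = 0.115). The prostaglandin transporter gene Slco2a1 fell 1.31-fold (log2 -0.39 ± 0.11 SE, edgeR adjusted p = 0.0476), lost without untreated replicate 1 or 3 or TGFβ replicate 1 or 2 (highest 0.301). The epoxide hydrolase gene Ephx1 fell 1.38-fold (log2 -0.47 ± 0.11 SE, edgeR adjusted p = 0.0188), lost without untreated replicate 1 or TGFβ replicate 1 or 2 (highest 0.211).

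Detoxification genes of the glutathione family fell and rose. Gstm1 (ENSMUSG00000058135), a μ-class glutathione transferase, stood at 897, 800.3 and 774 CPM untreated and at 379, 338 and 418 CPM with TGFβ. The highest treated library was far below the lowest untreated one, and the fall was 2.18-fold (log2 -1.12 ± 0.09 SE, edgeR adjusted p = 2.54e-11). Gstm2 fell 2.06-fold (log2 -1.04 ± 0.14 SE, edgeR adjusted p = 2.66e-06), from 110.3, 96.1 and 91.2 CPM to 48.9, 44 and 52 CPM. These genes are close copies, and reads shared between them could have been given to either. Over the 16 glutathione transferases tested 1 rose and 2 fell, with a median of -0.21. Gstcd, a gene with a transferase-like domain, rose 1.49-fold (log2 0.58 ± 0.14 SE, edgeR adjusted p = 0.0188), lost without untreated replicate 1 or TGFβ replicate 2 or 3 (highest adjusted p = 0.0997), and Gsto1 stood at 0.35 ± 0.11 (edgeR adjusted p = 0.105).

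Of 47 NRF2 and antioxidant genes 0 rose and 3 fell (6.38%, against 1.43% of all genes tested), with a median of -0.04 and 20 positive. Gpx3, the secreted glutathione peroxidase made largely by the proximal tubule, stood at 874, 821 and 825 CPM untreated and at 623, 602 and 619 CPM with TGFβ, a fall of 1.37-fold (log2 -0.45 ± 0.08 SE, edgeR adjusted p = 0.000431). Txnip, an inhibitor of thioredoxin, fell 1.54-fold (log2 -0.63 ± 0.12 SE, edgeR adjusted p = 0.00109), and the pentose phosphate enzyme gene Tkt 1.34-fold (log2 -0.42 ± 0.10 SE, edgeR adjusted p = 0.0128), lost without untreated replicate 2 or TGFβ replicate 1 (highest adjusted p = 0.13). The factor gene Nfe2l2 itself stood at -0.42 ± 0.11, just short of the threshold (edgeR adjusted p = 0.0505). Among 21 xenobiotic and AhR genes 3 rose and 2 fell, with a median of 0.02. Cyp1b1, a cytochrome P450 induced by the aryl hydrocarbon receptor, rose 2.48-fold (log2 1.31 ± 0.28 SE, edgeR adjusted p = 0.00533), lost without TGFβ replicate 2 (adjusted p = 0.0595). Por, the electron donor of microsomal P450 enzymes, fell 1.42-fold (log2 -0.50 ± 0.10 SE, edgeR adjusted p = 0.00239).

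A large fall among genes of at least 10 CPM in the higher group was that of Inmt (ENSMUSG00000003477), an indolethylamine methyltransferase that uses S-adenosylmethionine and is related in sequence to the enzyme of the study's construct. Inmt stood at 40.9, 23.1 and 35.3 CPM untreated and at 6.87, 3.72 and 10.1 CPM with TGFβ, a fall of 4.87-fold (log2 -2.28 ± 0.29 SE, edgeR adjusted p = 1.91e-06). Nnmt, the gene of the construct that these cells do not carry, stood at 24.7, 17.8 and 18.3 CPM untreated and at 33.3, 29.7 and 27.9 CPM with TGFβ. Its groups did not overlap, and the test was not passed (0.58 ± 0.21, 95% interval 0.15 to 1.01, edgeR adjusted p = 0.206). Of 33 genes of NAD metabolism and small-molecule methyl transfer Inmt alone was called, with a median of -0.12. The rate-limiting NAD salvage gene Nampt stood at -0.40 ± 0.12 (edgeR adjusted p = 0.0938). Of 40 genes of the serine, folate and methionine cycle 1 rose, 30 were positive and the median was 0.13. The called gene was Asns, asparagine synthetase (1.52-fold, log2 0.60 ± 0.13 SE, edgeR adjusted p = 0.00769).

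Receptors and cues of phagocytosis and cell guidance were among the genes that fell. Of 7 TAM receptor genes and ligands 0 rose and 2 fell, with a median of -0.04. Mertk, a receptor kinase for the uptake of dying cells, stood at 17.9, 10.2 and 10.6 CPM untreated and at 4.2, 4 and 1.41 CPM with TGFβ. Untreated replicate 1 was the highest and TGFβ replicate 3 the lowest, and the fall of 3.96-fold (log2 -1.98 ± 0.45 SE, edgeR adjusted p = 0.0113) was lost without untreated replicate 1 or TGFβ replicate 3 (highest adjusted p = 0.103) and with the 3 libraries left out together (0.222). Its ligand gene Gas6 fell 1.31-fold with overlapping groups (log2 -0.39 ± 0.11 SE, edgeR adjusted p = 0.0481), lost without untreated replicate 2 or 3 or TGFβ replicate 2 or 3 (highest adjusted p = 0.288), while the related receptor gene Axl stood at 0.16 ± 0.10 (edgeR adjusted p = 0.599). Of 20 semaphorins, neuropilins and plexins 0 rose and 2 fell, Nrp1 and Sema3c, with a median of -0.17. Sema3c, a secreted guidance cue, stood at 92, 81.2 and 74.7 CPM untreated and at 48.6, 38.9 and 43.8 CPM with TGFβ, a fall of 1.89-fold (log2 -0.92 ± 0.15 SE, edgeR adjusted p = 0.000271).

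Several regulators outside the lists above also fell. Of 39 AP-1, EGR and immediate-early genes 1 rose and 2 fell, with a median of -0.17. Egr1, a zinc-finger factor induced by growth signals, stood at 122, 110.3 and 109 CPM untreated and at 76.8, 75.6 and 80.6 CPM with TGFβ, a fall of 1.46-fold (log2 -0.55 ± 0.11 SE, edgeR adjusted p = 0.00223), and Klf4 fell 1.57-fold (log2 -0.65 ± 0.13 SE, edgeR adjusted p = 0.00406). Ier5 rose 1.27-fold (log2 0.35 ± 0.09 SE, edgeR adjusted p = 0.0481), lost without untreated replicate 1, 2 or 3 or TGFβ replicate 1 or 2 (highest adjusted p = 0.301). Mxd4 and Neurl1b were in no list and were chosen after their values were seen. Mxd4, a partner of MAX that opposes MYC, stood at 273, 305 and 273 CPM untreated and at 167, 145 and 172 CPM with TGFβ, and fell 1.76-fold (log2 -0.81 ± 0.10 SE, edgeR adjusted p = 3.92e-07). Neurl1b, a ubiquitin ligase of Notch signalling, stood at 251, 317 and 281 CPM untreated and at 165, 143 and 147 CPM with TGFβ, and fell 1.86-fold (log2 -0.90 ± 0.11 SE, edgeR adjusted p = 3.92e-07). None of 18 Notch and 29 Wnt pathway genes was called.

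Of 23 clock genes 2 rose and 1 fell, with a median of -0.04. Arntl, the core clock activator, stood at 6.57, 10.8 and 8.99 CPM untreated and at 13.7, 17.9 and 30.2 CPM with TGFβ. TGFβ replicate 3 was the highest, and the rise of 2.34-fold (log2 1.23 ± 0.30 SE, edgeR adjusted p = 0.0227) was lost without untreated replicate 1 or 3 or TGFβ replicate 3 (highest adjusted p = 0.202) and with the 3 libraries left out together (0.422). Csnk1e rose 1.33-fold (log2 0.41 ± 0.10 SE, edgeR adjusted p = 0.0167), lost without untreated replicate 3 or TGFβ replicate 3 (highest adjusted p = 0.168), and Rora fell 1.49-fold (log2 -0.58 ± 0.13 SE, edgeR adjusted p = 0.0099), lost without untreated replicate 3 or TGFβ replicate 2 (highest 0.0963).

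Messengers of ribosomal proteins mostly had small positive values. Of 75 cytosolic ribosomal protein genes tested 3 rose and 0 fell (4%, against 1.43% of all genes tested). Of these genes 66 were positive (49.7% over all genes tested) and the median was 0.26. The 16 members with treated values all above untreated ones compare with 7.78% of all genes. The sum of the 75 genes was 9437, 8966 and 9571 CPM in the untreated libraries and 11306, 11470.0 and 10197 CPM with TGFβ, with no overlap. Rps2 stood at 156, 182 and 173 CPM untreated and at 225, 250.3 and 221 CPM with TGFβ, and rose 1.36-fold (log2 0.45 ± 0.10 SE, edgeR adjusted p = 0.00877), lost without TGFβ replicate 2 (adjusted p = 0.107). Rps14 (log2 0.34 ± 0.09 SE, edgeR adjusted p = 0.0393) and Rpl38 (log2 0.83 ± 0.20 SE, edgeR adjusted p = 0.023) rose as well, and their calls were lost without untreated replicate 1, 2 or 3 or TGFβ replicate 1 or 2 (highest adjusted p = 0.21) and without untreated replicate 1 or 2 or TGFβ replicate 1 or 2 (highest 0.161). These values are uncertain, because ribosomal protein genes have many processed copies and the sources used here do not say how reads that match several places were treated. All ribosomal protein rows together took only 0.893 to 0.965% of assigned reads untreated and 1.013 to 1.148% with TGFβ. The 76 mitochondrial ribosomal protein genes had 0 calls and a median of 0.07, and the share of reads given to no gene was 27.64 to 28.23% untreated and 26.4 to 27.92% with TGFβ. The part of these shares in the ribosomal values was not tested.

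**Figure D4:**
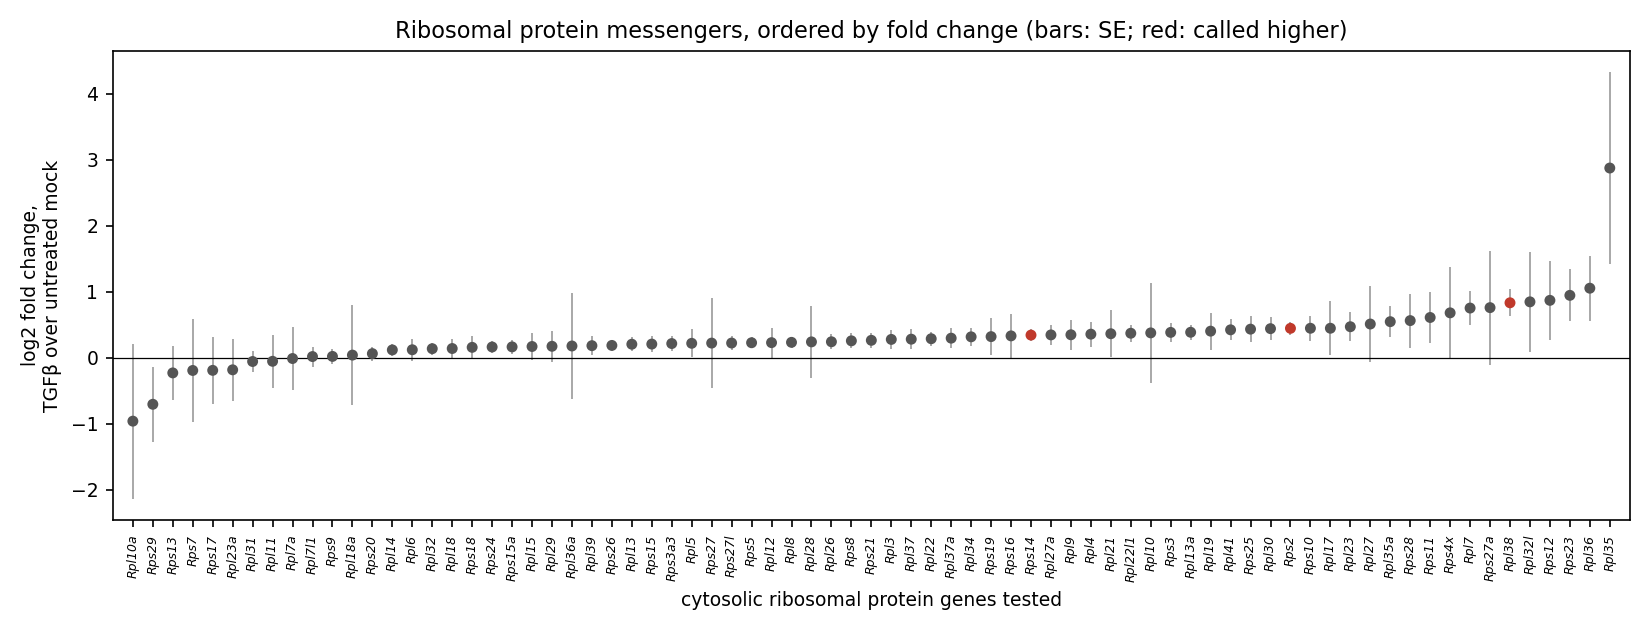
Each point is 1 of 75 cytosolic ribosomal protein genes at its log2 fold change with TGFβ, with a bar of ± SE, in order of that value. Of the 75 genes 66 lie above 0 and 3 (Rps14, Rps2 and Rpl38, red) were called, while several genes at either end have long bars.

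Genes of the nucleolus and of translation that no list covers were among those called higher, and they were chosen after their values were seen. Ncl, nucleolin, an abundant protein of the nucleolus, stood at 1171, 1262 and 1249 CPM untreated and at 1609, 1626 and 1613 CPM with TGFβ. The treated libraries were nearly equal, and the rise was 1.32-fold (log2 0.40 ± 0.07 SE, edgeR adjusted p = 0.00078). Ddx21, a nucleolar helicase, stood at 208, 222 and 244 CPM untreated and at 326, 336 and 313 CPM with TGFβ, and rose 1.45-fold (log2 0.53 ± 0.10 SE, edgeR adjusted p = 0.000898). Npm1, nucleophosmin, rose 1.39-fold (log2 0.48 ± 0.11 SE, edgeR adjusted p = 0.0188), lost without untreated replicate 1 or 2 or TGFβ replicate 1 or 2 (highest adjusted p = 0.167). Other called genes of this kind were Lyar (0.50 on the log2 scale), Gar1 (0.43), Tcof1 (0.54), Rrp12 (0.95) and Rrs1 (0.65) of ribosome assembly, and Eef1b2 (0.44), Eif5a (0.38), Eif2s2 (0.34) and Eif4g2 (0.33) of translation. Each of these 9 lost its call without at least 1 library. These were TGFβ replicate 1 or 2 for Lyar, untreated replicate 1 or TGFβ replicate 2 or 3 for Gar1 and untreated replicate 2 or TGFβ replicate 1 for Tcof1. They were untreated replicate 1 or 2 or TGFβ replicate 1, 2 or 3 for Rrp12, untreated replicate 2 or 3 or TGFβ replicate 1 or 2 for Rrs1 and untreated replicate 1 or 2 or TGFβ replicate 1 or 2 for Eef1b2. For Eif5a they were untreated replicate 1 or 2 or TGFβ replicate 2 or 3, for Eif2s2 untreated replicate 3 or TGFβ replicate 1 or 2 and for Eif4g2 untreated replicate 1 or TGFβ replicate 1 or 2. The highest adjusted p without 1 library ran from 0.0767 (Tcof1) to 0.268 (Rrp12).

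Genes of lysosomes and of membrane and secreted proteins were among those called lower, also chosen after their values were seen. Ctsd, the lysosomal protease cathepsin D, stood at 1006, 918 and 875 CPM untreated and at 724, 686 and 681 CPM with TGFβ, a fall of 1.34-fold (log2 -0.42 ± 0.08 SE, edgeR adjusted p = 0.000977). App, the amyloid precursor protein, stood at 1740.5, 1693 and 1601 CPM untreated and at 1279, 1191 and 1360.5 CPM with TGFβ, a fall of 1.31-fold (log2 -0.39 ± 0.08 SE, edgeR adjusted p = 0.00151). Itm2b, a membrane protein, fell 1.43-fold (log2 -0.52 ± 0.08 SE, edgeR adjusted p = 0.000101), and Fam3c, a secreted protein, 1.56-fold (log2 -0.64 ± 0.10 SE, edgeR adjusted p = 4.85e-05). Grn, the lysosomal and secreted progranulin, fell 1.34-fold (log2 -0.42 ± 0.09 SE, edgeR adjusted p = 0.00513), lost without TGFβ replicate 2 (adjusted p = 0.0562). Myo6, the myosin that moves endocytic vesicles, fell 1.57-fold (log2 -0.65 ± 0.10 SE, edgeR adjusted p = 5.72e-05). Ndrg1, a gene induced by hypoxia, was named as a list member. It fell 1.66-fold (log2 -0.73 ± 0.11 SE, edgeR adjusted p = 5.47e-05). Of 41 glycolysis and hypoxia genes tested 0 rose and 1, Ndrg1, fell (2.44%, against 1.43% of all genes), with a median of -0.12 and 10 positive.

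Cell cycle genes were mostly positive and small in change. Of 85 tested 64 were positive with a median of 0.11, and 1 was called, the mitotic kinase gene Cdk1 (1.42-fold, log2 0.51 ± 0.13 SE, edgeR adjusted p = 0.0497), lost without untreated replicate 1 or TGFβ replicate 1 or 2 (highest adjusted p = 0.21). Of 53 p53 targets and arrest genes 2 rose and 1 fell, with a median of -0.13 and 17 positive. The stress genes Gadd45b and Gadd45g rose, and Gadd45g stood at 96.5, 126 and 119 CPM untreated and 176, 201 and 184 CPM with TGFβ (1.64-fold, log2 0.72 ± 0.11 SE, edgeR adjusted p = 4.83e-05). The arrest gene Cdkn1a stood at 0.07 ± 0.12 (edgeR adjusted p = 0.89) and Cdkn2a at -0.09 ± 0.11 (0.838).

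Other lists held few or no calls. None of 36 chemokine, cytokine and NF-κB genes (median 0.15), 49 genes of cholesterol and fatty acid synthesis (0.07) or 75 of oxidative phosphorylation (-0.05) was called. Of 50 interferon and antigen presentation genes 0 rose and 1 fell, the class I gene H2-K1 (1.34-fold, log2 -0.42 ± 0.09 SE, edgeR adjusted p = 0.00683), lost without untreated replicate 1 (adjusted p = 0.0974). Of 50 genes of fatty acid oxidation 1 fell, Acot2 (1.67-fold, log2 -0.74 ± 0.17 SE, edgeR adjusted p = 0.0113), lost without untreated replicate 1 or TGFβ replicate 2 (highest adjusted p = 0.107). Among 182 solute carriers 1 rose and 2 fell (1.65%, near the 1.43% of all genes tested), with a median of -0.06. The phosphate transporter gene Slc20a1 rose 1.42-fold (log2 0.50 ± 0.11 SE, edgeR adjusted p = 0.0081), lost with the 3 libraries left out together (adjusted p = 0.092), and the amino acid transporter gene Slc43a2 fell 2.04-fold (log2 -1.03 ± 0.18 SE, edgeR adjusted p = 0.000338). Among genes of xenobiotic response not given above, Tiparp (log2 0.54 ± 0.13 SE, edgeR adjusted p = 0.0263) and the efflux pump gene Abcc1 (log2 0.47 ± 0.12 SE, edgeR adjusted p = 0.0296) rose, lost without untreated replicate 1 or 3 or TGFβ replicate 2 or 3 (highest adjusted p = 0.161) and, for Abcc1, in each of the 6 fits without 1 library (highest 0.109).

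Further genes had large, sturdy or abundant changes. Fam198b, a Golgi protein, rose 2.97-fold (log2 1.57 ± 0.35 SE, edgeR adjusted p = 0.00812), lost without untreated replicate 2 or TGFβ replicate 1 (highest adjusted p = 0.116). Cpne8, a calcium-binding copine, rose 2.33-fold (log2 1.22 ± 0.25 SE, edgeR adjusted p = 0.00473), lost without TGFβ replicate 2 (adjusted p = 0.0915). Siglecg, a sialic acid-binding lectin best known from B cells, rose 2.19-fold (log2 1.13 ± 0.24 SE, edgeR adjusted p = 0.00561), lost without untreated replicate 1 or TGFβ replicate 2 (highest adjusted p = 0.126). The 8 macrophage and leukocyte markers summed to 55.25 to 81.23 CPM untreated and 76.55 to 96.34 CPM with TGFβ, mostly Csf1r, and Adgre1, Itgam and Cd3e were among those with no read. Basp1, a membrane-bound cytoskeletal protein, rose 1.4-fold (log2 0.48 ± 0.09 SE, edgeR adjusted p = 0.00072), and Serbp1, an RNA-binding protein and the most abundant gene called higher, 1.21-fold (log2 0.28 ± 0.07 SE, edgeR adjusted p = 0.0266), lost without untreated replicate 2 or 3 or TGFβ replicate 1 or 2 (highest adjusted p = 0.168).

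Among falls of this kind, the adenosine receptor gene Adora1 fell 2.56-fold (log2 -1.35 ± 0.31 SE, edgeR adjusted p = 0.014), lost without untreated replicate 3 or TGFβ replicate 1 or 3 (highest adjusted p = 0.0834). Ston2, an endocytic adaptor, fell 2.18-fold (log2 -1.13 ± 0.21 SE, edgeR adjusted p = 0.00121), Kctd12, an auxiliary subunit of GABA-B receptors, 2.15-fold (log2 -1.11 ± 0.20 SE, edgeR adjusted p = 0.00078), and Rapgef3, an exchange factor activated by cyclic AMP, 2.1-fold (log2 -1.07 ± 0.18 SE, edgeR adjusted p = 0.000283). Rapgef3 stood at 51.7, 59.8 and 54.7 CPM untreated and at 29.1, 31.9 and 17.5 CPM with TGFβ. The zinc-finger factor gene Zbtb20, the most abundant gene called lower, fell 1.21-fold (log2 -0.28 ± 0.07 SE, edgeR adjusted p = 0.0435), lost without untreated replicate 1 or 2 or TGFβ replicate 1, 2 or 3 (highest adjusted p = 0.196). The uncharacterised gene D830013O20Rik had 32, 3 and 17 reads in the untreated libraries and 0 with TGFβ. Against a floor of 3 counts over the treated group it was at least 21.1-fold lower (edgeR adjusted p = 0.0178), lost without untreated replicate 1 or TGFβ replicate 1, 2 or 3 (highest adjusted p = 0.126), and limma-voom did not call it (adjusted p = 0.106). Ston2, Kctd12, Rapgef3, Basp1, Fam198b, Cpne8 and D830013O20Rik are in none of the lists. Of the 184 called genes 79 belonged to at least 1 of the 54 lists and 105 to none.

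The same contrast in the libraries labelled Nnmt-OE, which share none with these 6, gave the 184 genes the same sign in 181 cases (98.4%, against 61.1% of all genes tested). In 149 of the 184 the Nnmt-OE values also did not overlap in that direction, against 1694 of the 12897 genes tested. There 180 genes were called (1.4%), 84 higher (0.651%) and 96 lower (0.744%), and 90 were called in both, or 48.9% of the mock calls and 50% of the Nnmt-OE calls. A test of the difference between both responses called 0 genes by edgeR and by DESeq2, with 501 at an unadjusted p of 0.05 by edgeR (3.88% of genes tested). In mock against Nnmt-OE, Acta2 stood at 1.96 ± 0.18 and 2.40 ± 0.18, Gstm1 at -1.12 ± 0.09 and -1.25 ± 0.09, and Inmt at -2.28 ± 0.29 and -2.29 ± 0.31 (log2 ± SE). Of the 3 genes of opposite sign, Arntl stood at 1.23 ± 0.30 in mock and -0.41 ± 0.29 in Nnmt-OE cells (edgeR adjusted p of the difference = 0.999, unadjusted 0.00037). The others were the cyclin gene Ccnl2 (-0.47 and 0.04, the mock call lost without untreated replicate 1 or TGFβ replicate 2) and the nuclear envelope gene Nrm (-0.82 and 0.01, the mock call lost in each fit without 1 library). The mock value was the larger of the pair for 134 of the 184, and it was by this value that the genes were chosen.

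**Figure D5:**
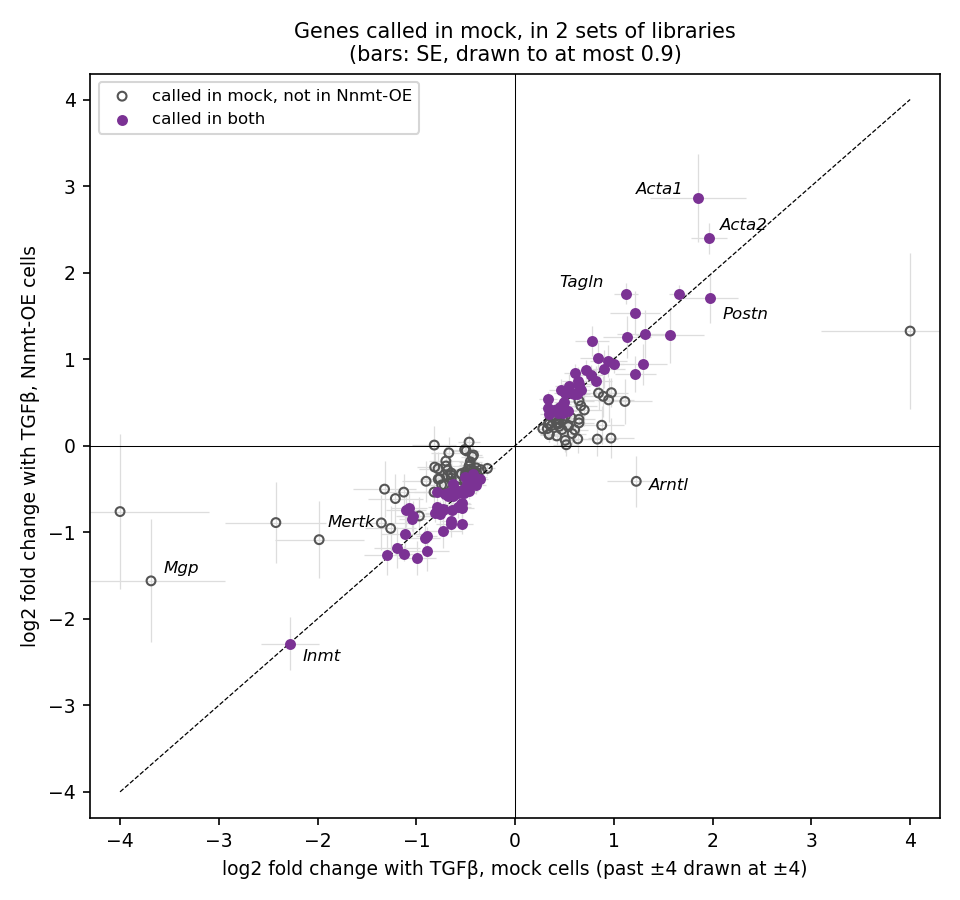
Each point is 1 of the 184 genes called in mock cells, with its log2 fold change with TGFβ in mock cells (x axis) and in Nnmt-OE labelled cells (y axis), filled where called in both, with SE bars. Most points lie in the lower left and upper right quadrants (181 of 184 share a sign), and Arntl lies below 0 on the y axis only.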

How the data were processed

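The deposited table holds raw read counts per gene, which the authors made with STAR and HTSeq, per the submitters' processing notes. Those notes give no versions and name the build GRCh38, although the identifiers are mouse Ensembl genes. The build, the annotation and the strand setting used are therefore not given in the sources used here. Reads of overlapping or antisense genes are uncertain. The library kit starts from 100 ng of RNA, per the labels' protocols, and no molecular identifiers are named, so counts are of reads. The 5 HTSeq summary rows entered neither library sizes nor tests. Reads given to no gene took 26.4 to 28.79% and ambiguous reads 0.6 to 0.68% of each library. Symbols came from GENCODE M21 names (99.4% of 55487 identifiers), and promoters from RefSeq (GRCm38.p6, first listed window per gene).

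Libraries were grouped by title. All 12 entered 1 fit of 4 group means in edgeR 4.0.16 (R 4.3.3), after filterByExpr (minimum count 10, total 15) had removed 42590 genes and left 12897. Libraries were scaled by TMM and tested with the quasi-likelihood F test (robust), and p-values were adjusted by the Benjamini-Hochberg method across the 12897 genes, with a threshold of 0.05 on the adjusted p. CPM use the TMM-scaled library sizes. The fit was tested on simulated counts of the same genes, with 200 of them changed. It recovered 29.9% of 1.5-fold, 58.2% of 2-fold and 92.4% of 4-fold changes, so many changes of 2-fold or less were missed.

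The comparison, the 54 gene lists (2425 genes, of which 1625 were tested) and the markers were chosen with earlier results of these data known. Lists are described by counts and medians and were not tested as sets. Genes were named by rule. It took the 15 largest called rises and falls reaching 10 CPM in the higher group, called members of lists, the 5 most abundant called genes in each direction, up to 5 members of lists with few calls, Nnmt, markers, and other called genes said to be chosen after their values were seen. Some genes covered by the rule are left unreported. Alternatives were DESeq2 1.42.0, limma-voom (limma 3.58.1), scaling by RLE or by library totals, no filter or a stricter one, the 6 mock libraries alone, a replicate block, a test against a fold of 1.2 and each library left out. A fit without 3 libraries together (untreated replicate 1, and replicate 3 of both TGFβ groups) was added after the data were seen.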

Additional observations from a re-analysis of the deposited data

How the results depend on the processing

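The 184 called genes (86 higher, 98 lower) became 306 (144 and 162) with DESeq2, 92 (31 and 61) in a fit of the 6 mock libraries alone, and 46 (19 and 27) when tested against a fold of 1.2. Without a filter on low counts there were 264, with 133 higher and 131 lower. The fits without 1 library gave 98 to 188 genes, 39 to 93 higher and 59 to 105 lower, lowest without TGFβ replicate 2. The counts were 184 with RLE scaling, 172 with library totals, 187 with limma-voom and 178 with a stricter filter. With a block for the replicate number 170 genes were called (81 higher, 89 lower). The numbers did not pair the mock libraries, since the deviations of same-numbered libraries had correlations of -0.041, 0.022 and -0.102. Without untreated replicate 1 and replicate 3 of both TGFβ groups, an alternative chosen after seeing the data, 168 genes were called, of which 114 were among the 184. None of the 184 changed sign under an alternative that tested it (Ldb3 and D830013O20Rik were not tested with the 6 mock libraries alone), and the test of the difference from Nnmt-OE cells called 0 genes under each that included those cells and that test. With 3 libraries a group, the 95% interval of a log2 fold change reached 0.349 to either side for a typical gene at 10 CPM or more, so a gene that missed the threshold is not shown to be unchanged.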
